A study of Mus musculus with 6 samples.

Results

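PCR assays for 13 miRNAs known from pluripotent stem cells or from single differentiated tissues were read in activated mouse CD8+ T cells. The rule that picks them uses names and no measured value: of 33 names of pluripotency, muscle, liver, nervous system, pancreas, eye and pigment cell miRNAs, the mouse-named, unstarred assays present were taken, 13 of 350 miRNA assays. The joint assay of miR-128a and miR-128b, which share 1 mature sequence, was counted as 1 member. The members are miR-294, miR-302a, miR-302b, miR-302c and miR-302d of pluripotent cells, miR-1 (named mmu-miR-1 in the tables, as the others are with their numbers), miR-206, miR-208a and miR-208b of muscle, miR-9 and miR-128a with miR-128b of the nervous system, and miR-184 and miR-204 of the eye.

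All 6 samples were CD8+ pMel-1 transgenic T cells, whose transgenic T cell receptor recognises gp100, a melanoma antigen, primed in culture for 3 days. In the DC-primed group (3 samples, the test group) they were activated by bone marrow-derived dendritic cells matured with LPS, and in the B cell-primed group (3 samples, the control group) by splenic B cells loaded with hgp100(25-33). The labels give no strain or age of the mice, and do not say that the priming cells were removed before RNA was extracted. Each of rounds 1, 2 and 3 gave 1 sample of each group, numbered by its round, and nothing says that rounds used separate animals. The p-values therefore cover the spread between these samples alone, which may be technical.

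A mature miRNA pairs with target mRNAs mainly through its seed, bases 2 to 8. The miR-290 and miR-302 clusters are transcribed in embryonic stem cells and are shut off as cells differentiate. miR-1 and miR-206 act in muscle differentiation, and miR-208a and miR-208b lie within introns of cardiac myosin heavy chain genes. miR-9 and miR-128 are abundant in brain, and miR-9 is also known to be induced by LPS in monocytes and neutrophils; miR-184 and miR-204 are abundant in lens, cornea or retina.

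The sequences below show how alike the members are that gave the most unlike signals, with the seed in capitals. They are the RefSeq mature sequences (GRCm38.p6), 5′ to 3′, of the arm to which the unstarred older name refers, and 11 of the 13 members were matched. The others are miR-1 and miR-302a. The matching did not search every locus, so this does not show that RefSeq lacks a miR-1 sequence. The primers themselves are not among the values used here. The pluripotency set comes first.
miR-302b: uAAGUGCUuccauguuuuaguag
miR-302c: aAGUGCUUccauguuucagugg
miR-302d: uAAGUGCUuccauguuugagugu
miR-294: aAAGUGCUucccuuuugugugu
The hairpins of miR-302b, miR-302c and miR-302d lie together within 462 bases at chr3:127545228-127545689 (+ strand). miR-302b and miR-302d are identical over their first 17 bases and differ at 3 of 23 (G18U, G22A and U23G, positions counted from the 5′ end, miR-302d base first). miR-302c begins 1 base later in the shared stretch and differs from miR-302d at 2 of 22 aligned bases (G18C and U23G, in miR-302d positions), so its seed is shifted by 1 base. miR-294, whose hairpin lies at chr7:3220641-3220724 (+ strand), shares the seed AAGUGCU with miR-302b and miR-302d, and 13 of 22 bases with miR-302d.

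The sets on which the other results turn are both strands of the miR-9 hairpin (miR-9* is the opposite strand and not a member), miR-184, the miR-208 pair, and miR-204 beside its near copy miR-211, which is not a member.
miR-9: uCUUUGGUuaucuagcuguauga
miR-9*: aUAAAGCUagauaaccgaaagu
miR-184: uGGACGGAgaacugauaagggu
miR-208a: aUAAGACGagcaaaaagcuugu
miR-208b: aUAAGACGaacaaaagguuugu
miR-204: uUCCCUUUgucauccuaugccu
miR-211: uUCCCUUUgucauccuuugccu
The same miR-9 sequence is made from 3 loci, with hairpins at chr3:88215598-88215686 (+), chr7:79505264-79505353 (+) and chr13:83738814-83738885 (+), so the assay cannot tell them apart. The miR-184 hairpin lies at chr9:89802260-89802328 (- strand). miR-208a and miR-208b share their seed and 19 of 22 bases (G10A, A16G and C18U, miR-208a base first). No other mouse-named, unstarred assay that could be matched by name shared a seed with a member. Human-named assays were outside this comparison, as were the seeds of miR-1 and miR-302a, so it does not show that the members have no seed relatives among all assays.

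A threshold cycle (Ct) is the PCR cycle at which the product becomes visible, so a later Ct means less template, and a Ct of 35 or above is flagged here as near the end of the usable range. Levels are given as minus dCt, where dCt is the Ct minus the authors' 1 number per sample: they are on the log2 scale, and higher means more miRNA. Primer efficiency differs between assays, so Ct values of different assays rank signals and not amounts of RNA. DC-primed sample 3 stood apart from the rest, with a median Ct of 31.84 over all assays against 27.50 to 29.59 in the other 5 samples, and 280 assays below 35 against 327 to 341. The assays listed here as T cell markers, miR-142-3p, miR-142-5p, miR-150, miR-155 and miR-181a, were below 35 wherever a Ct was listed. Only miR-142-3p in DC-primed sample 3 had none. Whether these assays tell T cells from the priming cells was not tested.

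Of the 13 members, 8 had a Ct below 35 in all 6 samples (61.5%, against 78.8% of the 306 mouse-named assays). They were miR-302a, miR-302c, miR-302d, miR-294, miR-1, miR-206, miR-128a with miR-128b, and miR-204. By sample, 12, 12 and 9 members were below 35 after priming by dendritic cells (samples 1, 2 and 3), and 11, 11 and 10 after priming by B cells. The lowest count was in DC-primed sample 3, where 80.4% of mouse-named assays were below 35 against 94.8% to 98.4% in the others. miR-302b was the one member below 35 in no sample, with 39.36 in DC-primed sample 2, with 39.76, 39.76 and 36.58 after B cell priming, and with no Ct listed in DC-primed samples 1 and 3.

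**Figure D1:**
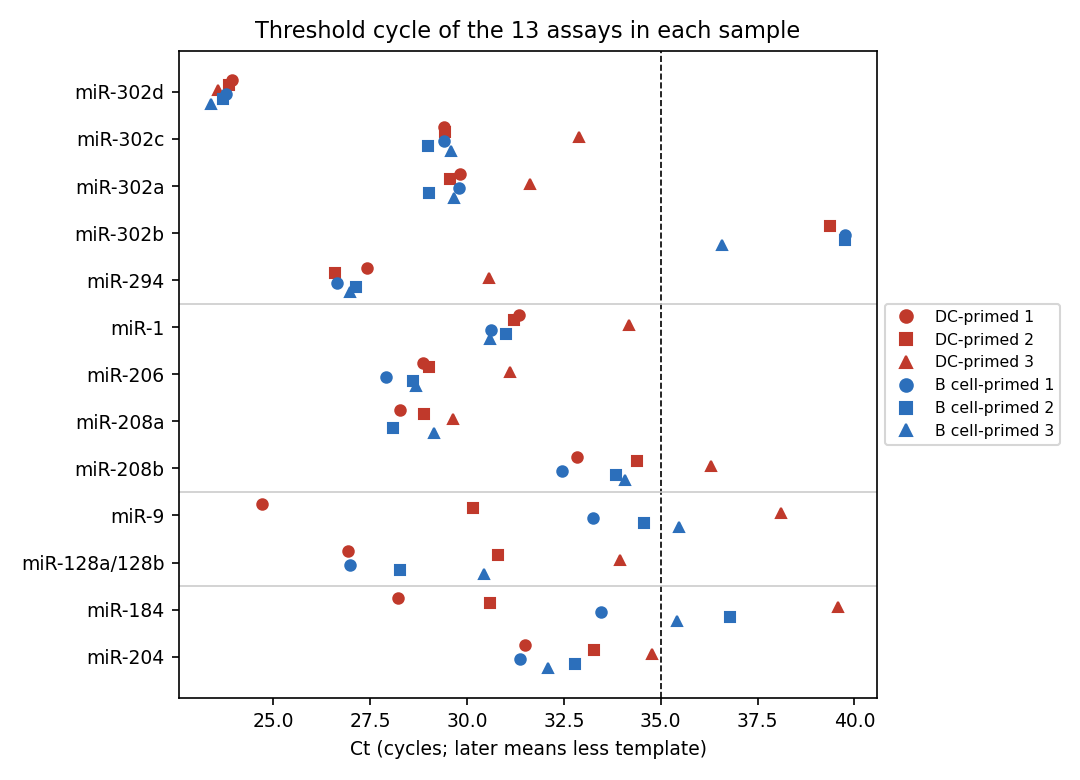
Ct in cycles (x axis) of each of the 13 assays (rows) in each sample; red, DC-primed; blue, B cell-primed; circle, square and triangle, samples 1, 2 and 3; the dashed line marks a Ct of 35. miR-302d sits between 23.39 and 23.94 in every sample, miR-9 spreads from 24.72 to 38.10, and points are missing for miR-302b in DC-primed samples 1 and 3 and for miR-208a in B cell-primed sample 1.

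A signal below 35 can also come from an assay whose RNA the mouse genome does not encode. Among 11 human-named assays for the primate miR-512 to miR-527 cluster, 9 were below 35 in all 6 samples, with mean Ct values of 25.26 to 31.89 and a median of 29.34. The 8 members detected in all samples had mean Ct values of 23.71 to 32.64 and a median of 29.74. Of these 8, 6 lay within the range of the primate assays: miR-294 at 27.55, miR-206 at 29.04, miR-128a with miR-128b at 29.56, miR-302a at 29.92, miR-302c at 29.96 and miR-1 at 31.49. By mean Ct, miR-302d at 23.71 was earlier and miR-204 at 32.64 was later than all 9. Sample by sample miR-302d did not stand clear of them. The primate assay miR-520g was earlier in DC-primed sample 1 (23.24 against 23.94). So it was in B cell-primed samples 1 and 2 (23.08 and 22.63 against 23.78 and 23.71). In the remaining samples miR-520g was later than miR-302d. A Ct below 35 therefore does not by itself show that a member's RNA was present. The sequences of the primate assays were not compared with those of the members, so a signal shared between them was not tested.

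miR-302d, a stem cell miRNA of the miR-302 cluster, gave the earliest signal of the members and nearly the same Ct in every sample. DC-primed samples 1, 2 and 3 gave 23.94, 23.85 and 23.58, and B cell-primed samples 1, 2 and 3 gave 23.78, 23.71 and 23.39. These 6 values span 0.55 cycles, the smallest range among the 338 assays with 6 Ct values, where the median range was 4.99 cycles and the next smallest 0.90, for miR-34b-3p. Over the same samples the median Ct of all assays moved by 4.34 cycles. In DC-primed sample 3 the median assay was 3.43 cycles later than its mean in the other 5 samples, while miR-302d was earlier by 0.15 (a Ct difference of -0.15); 15 of the 338 assays were earlier there. The group means of Ct were 23.79 ± 0.19 and 23.63 ± 0.21 (SD, n = 3 each), DC-primed first, and the groups overlapped.

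On the normalised scale the same assay looked variable. DC-primed levels were 2.24, 4.61 and 6.88 and B cell-primed levels 2.57, 3.41 and 4.24 (samples 1, 2 and 3), in the order within each group of the authors' per-sample numbers (26.18, 28.46 and 30.46, then 26.35, 27.12 and 27.63 cycles). The mean level was 4.58 ± 2.32 against 3.41 ± 0.83 (SD, n = 3 each), a difference of 1.17 ± 1.14 (SE; limma adjusted p = 0.962). Without DC-primed sample 3 the difference was 0.02. With all 6 samples and no normalization (minus Ct, so that higher still means more miRNA) it was -0.16. Its level lay at the 79.7th to 96.5th percentile of the 345 assays with a dCt, depending on the sample.

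**Figure D2:**
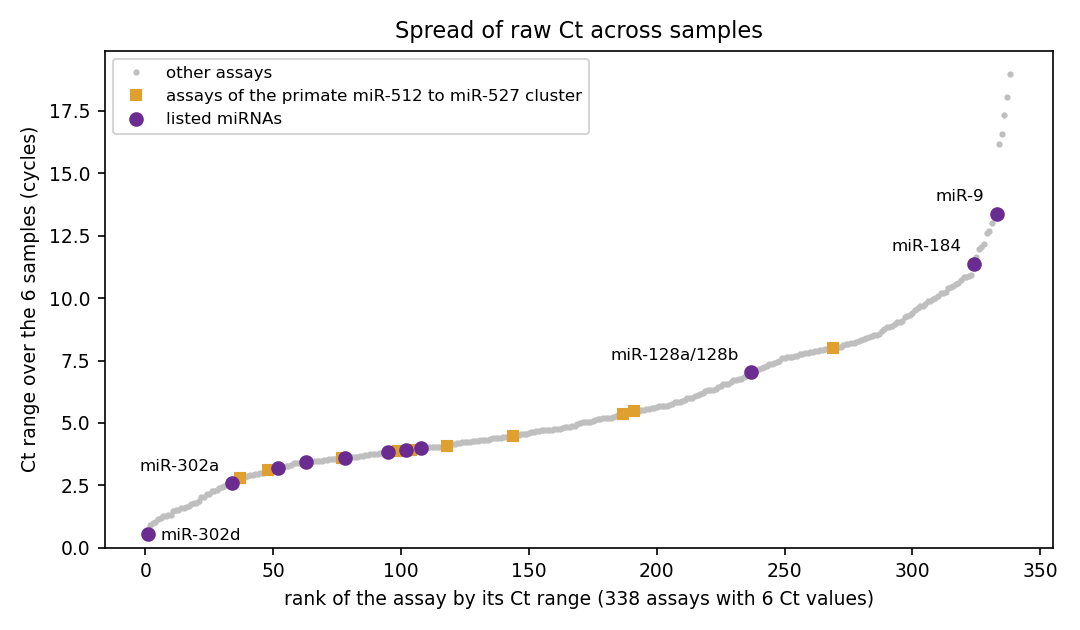
Range of Ct over the 6 samples in cycles (y axis) for each of the 338 assays with 6 Ct values, ordered from the smallest (x axis, rank); purple, listed miRNAs; orange, assays of the primate miR-512 to miR-527 cluster; grey, the rest. miR-302d is at rank 1 with 0.55 cycles, and miR-184 and miR-9 are at ranks 324 and 333 with 11.37 and 13.38 cycles.

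The remaining miR-302 assays did not follow miR-302d, although miR-302b and miR-302c are close to it in sequence and are encoded beside it. miR-302c was read at a Ct of 29.41, 29.44 and 32.89 (DC-primed) and of 29.41, 28.99 and 29.60 (B cell-primed). miR-302a was close to it, at 29.81, 29.56 and 31.62 and at 29.80, 29.03 and 29.67. Both were latest in DC-primed sample 3 and otherwise stayed within 1 cycle. Within a sample, miR-302c came 5.28 to 9.31 cycles and miR-302a 5.32 to 8.04 cycles after miR-302d, and the largest of both gaps was in DC-primed sample 3. In the 4 samples with a value, miR-302b came 13.19 to 16.05 cycles after miR-302d, from which it differs at 3 bases.

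In levels, miR-302a stood at -1.96 ± 1.44 after dendritic cell priming and at -2.46 ± 0.85 after B cell priming, and miR-302c at -2.21 ± 1.14 and -2.30 ± 0.66 (SD, n = 3 each). The differences of 0.50 ± 0.89 and 0.08 ± 0.79 (SE) did not pass the test (limma adjusted p = 0.986 each). Neither kept its sign over the rounds: miR-302a differed by -0.18, 0.81 and 0.88 and miR-302c by -0.17, 0.89 and -0.46 in rounds 1, 2 and 3.

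miR-294, from the stem cell miR-290 cluster, had DC-primed Ct values of 27.43, 26.58 and 30.57 and B cell-primed values of 26.65, 27.13 and 26.97. Its levels were -1.25, 1.88 and -0.11 against -0.30, -0.01 and 0.66. The B cell-primed values lay inside the DC-primed range, and the difference was 0.05 ± 0.88 (SE; 95% confidence interval -1.96 to 2.07; limma adjusted p = 0.989).

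The muscle miRNAs also overlapped between the groups. miR-206, near the middle of the assays in several samples (53rd to 59.4th percentile in DC-primed samples 2 and 3 and B cell-primed sample 3), had DC-primed levels of -2.69, -0.57 and -0.65 and B cell-primed levels of -1.57, -1.49 and -1.05, a difference of 0.06 ± 0.77 (SE; 95% confidence interval -1.69 to 1.81; limma adjusted p = 0.986). miR-1, the most abundant miRNA of heart and skeletal muscle, had levels of -5.15, -2.76 and -3.72 against -4.27, -3.88 and -2.96, a difference of -0.18 ± 0.81 (-2.01 to 1.66; limma adjusted p = 0.986). In both, DC-primed sample 1 was the lowest and DC-primed sample 2 the highest of the 6. On raw Ct miR-1 was read at 31.33, 31.22 and 34.18 against 30.62, 31.00 and 30.59, DC-primed first, so that only DC-primed sample 3 lay apart.

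miR-208a and miR-208b, the myosin intron pair, each had 1 sample with no Ct or a Ct above 35 and so fell outside the main test. The DC-primed Ct values of miR-208a were 28.28, 28.89 and 29.64. B cell-primed samples 2 and 3 gave 28.09 and 29.14, and none is listed for sample 1, for which the authors' dCt holds a filled-in value. Its level differed by 1.01 with that value and by 0.67 without it. miR-208b came later, at 32.83, 34.39 and 36.29 against 32.45, 33.85 and 34.09, with 1 value above 35, and differed by 0.29. With no limit on Ct neither passed (limma adjusted p = 0.896 for miR-208a and 0.969 for miR-208b), nor did miR-208a with the filled-in value left out (0.937). The levels of the groups overlapped for both assays.

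The joint assay of miR-128a and miR-128b, a neuronal miRNA made from loci on chromosomes 1 and 9, was the only tested member with 1 sign in every round. Rounds 1, 2 and 3 gave a Ct of 26.92, 30.80 and 33.94 with dendritic cells and of 26.97, 28.28 and 30.45 with B cells. DC-primed levels of -0.74, -2.34 and -3.48 stood against -0.62, -1.16 and -2.82. The differences by round were -0.12, -1.18 and -0.66, with a mean of -0.66 ± 0.92 (SE; limma adjusted p = 0.971), and without DC-primed sample 3 the difference was -0.01. Among the 274 tested assays, 25.5% kept 1 sign over the rounds, against 1 of 8 members, and 12.8% were lower in every round.

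miR-204, of the eye, came late in all samples, at a Ct of 31.51, 33.28 and 34.78 (DC-primed) and of 31.36, 32.78 and 32.10 (B cell-primed). Its level was -4.82 ± 0.50 and -5.04 ± 0.59 (SD, n = 3 each), a difference of 0.22 ± 0.67 (SE; limma adjusted p = 0.986). A human-named assay for miR-211 was read much earlier, at 23.14 to 29.14. The mouse miR-211 sequence has the same seed as miR-204 and differs from it at 1 of 22 bases (A17U, miR-204 base first). The human miR-211 sequence, for which this assay is named, was not compared.

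miR-9 and miR-184 behaved unlike the other members: their signal was early in DC-primed samples 1 and 2 and at the limit elsewhere. miR-9 crossed the threshold at 24.72, 30.15 and 38.10 cycles after dendritic cell priming (samples 1, 2 and 3) and at 33.25, 34.58 and 35.48 after B cell priming. miR-184 did so at 28.21, 30.59 and 39.58 against 33.46, 36.78 and 35.41. In both assays DC-primed samples 1 and 2 lay ahead of all B cell-primed samples, by at least 3.10 cycles for miR-9 and 2.87 for miR-184. In levels, the same 2 samples were above all 3 B cell-primed samples in 50 of the 345 assays (14.5%), so this order is not particular to these members. DC-primed sample 3 was above 35 in both, where the order against B cell-primed values that are also above 35 carries no meaning. With a Ct range of 13.38 and 11.37 cycles they were at ranks 333 and 324 of the 338 assays, a range whose upper end lies above 35.

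In levels, miR-9 was at 1.46, -1.69 and -7.64 (DC-primed) and at -6.90, -7.46 and -7.85 (B cell-primed). It differed by 8.36, 5.77 and 0.21 in rounds 1, 2 and 3, where in round 3 both samples had a Ct above 35 and so have no order. miR-184 was at -2.03, -2.13 and -9.12 against -7.11, -9.66 and -7.78, with differences of 5.08, 7.53 and -1.34, and again both round 3 values were above 35. Among the 345 assays miR-9 stood at the 73.0th and 42.6th percentile in DC-primed samples 1 and 2, and at the 2.03rd to 5.22nd in the remaining 4 samples. The mean differences were 4.78 for miR-9 and 3.75 for miR-184, and the groups overlapped through DC-primed sample 3. Neither assay entered the main test, since a Ct below 35 in all 6 samples was required. With no such requirement neither passed (4.78 ± 2.07, SE, limma adjusted p = 0.621; 3.75 ± 1.91, 0.657).

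Without DC-primed sample 3, the mean difference was 7.29 for miR-9 and 6.10 for miR-184. These are descriptions with no test, since that sample was set aside after its values were seen to be unlike those of the other 2 DC-primed samples. With no limit on Ct as well, limma called 5 of 344 assays (1.45%; 1.16% higher), these 2 members among them, and nothing is read from those calls. The B cell-primed values behind the differences include 1 of 3 above 35 for miR-9 and 2 of 3 for miR-184, so their sizes are uncertain.

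The opposite strand of the miR-9 hairpin, miR-9*, was also earliest in DC-primed samples 1 and 2. It was read at 27.47, 32.43 and 40.49 cycles (DC-primed) and at 32.88, 33.19 and 33.27 (B cell-primed). Where both strands were below 35, it came 2.75 and 2.28 cycles after miR-9 in DC-primed samples 1 and 2, and differed from miR-9 by -0.37 and -1.39 cycles, that is earlier, in B cell-primed samples 1 and 2. In each round 3 sample miR-9 was above 35, so no order of the strands is read there. The level of miR-9* differed by 5.24 and 2.10 in rounds 1 and 2, and in round 3 its DC-primed value was above 35.

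In DC-primed samples 1 and 2, where miR-9 and miR-184 were high, 4 of 5 myeloid and dendritic markers lay above all B cell-primed samples. So did 3 of the 5 listed T cell markers. Of the myeloid markers, miR-99b and miR-147 lay above them in DC-primed sample 3 as well. Their levels there were -2.66 and -0.11, against highest B cell-primed levels of -2.95 and -1.82. miR-223, abundant in granulocytes and monocytes, had DC-primed levels of 5.36, 1.23 and -6.53 and B cell-primed levels of -5.79, -5.32 and -5.04. Over the list of miR-223, miR-22, miR-99b, miR-125a-5p and miR-147, 5 of 5 were higher on average in DC-primed cells, as were 173 of the 345 assays. Above all 3 B cell-primed samples were 5 of 5 in DC-primed sample 1, 4 in sample 2 and 2 in sample 3, against 30.4%, 35.7% and 33.6% of the 345 assays. In samples 1 and 2 alike, 4 of 5 were above, against 14.5% of assays. The summed level of the list (log2) was 7.15, 3.03 and 1.58 with dendritic cells (samples 1, 2 and 3) and 0.78 to 1.68 with B cells. Every one of these 5 had a Ct below 35 in every sample, except miR-223 in DC-primed sample 3 at 36.99.

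Of the 5 T cell markers, 5 were above all B cell-primed samples in DC-primed sample 1, 3 in sample 2 and 1 in sample 3, the last being miR-142-3p with a value filled in by the authors. miR-155, induced when lymphocytes are activated, had DC-primed levels of 8.05, 8.42 and 2.58 and B cell-primed levels of 5.56, 6.54 and 5.83. miR-181a, which tunes T cell receptor signalling, had levels of 1.94, -0.38 and -3.05 against -2.74, -1.44 and -1.26. Both were highest in DC-primed samples 1 and 2 and lowest in DC-primed sample 3. The summed level of the T cell list was 8.85, 8.57 and 8.09 (DC-primed, the last resting on the filled-in value) and 6.0 to 7.48 (B cell-primed). The part of either list in the miR-9 and miR-184 values was not tested, and in such bulk RNA more cells of a type and more RNA per cell cannot be told apart.

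**Figure D3:**
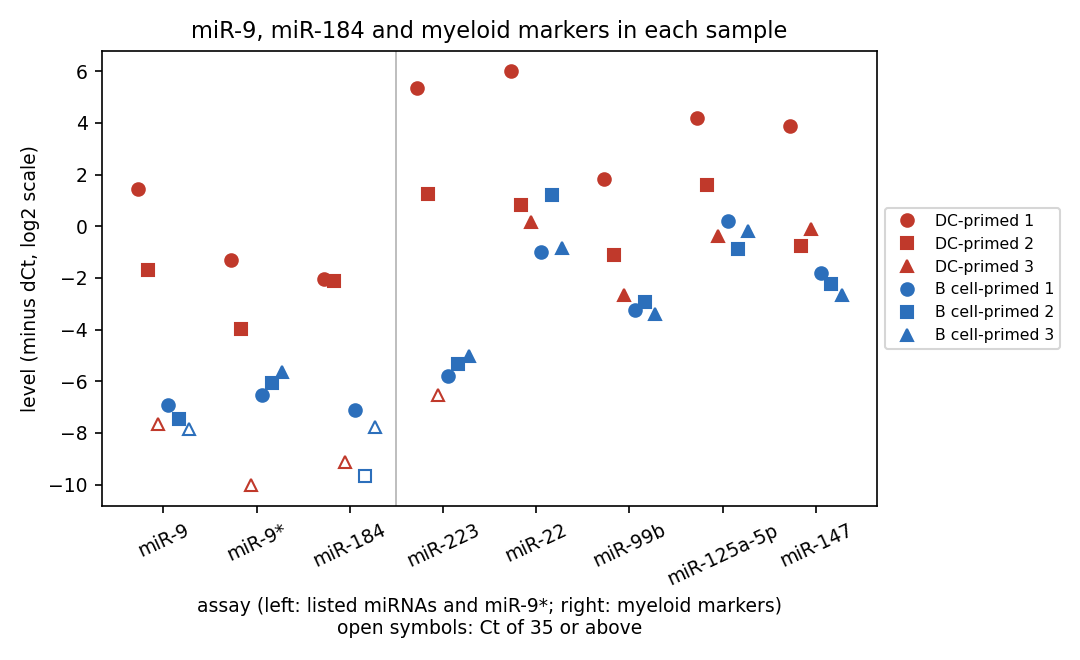
Level (minus dCt, log2 scale) of miR-9, miR-9* and miR-184 (left) and of 5 myeloid markers (right) in each sample; red, DC-primed; blue, B cell-primed; circle, square and triangle, samples 1, 2 and 3; open symbols have a Ct of 35 or above. For miR-9, miR-184 and miR-223 the red circle and square lie above every other sample, and the red triangle is open.

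Across the tested members, priming by dendritic cells or by B cells made no difference that passed the test. limma called 0 of the 8, with a smallest adjusted p of 0.962, where 0% of the 274 tested assays were called. At an unadjusted p under 0.05 there were 0 members and 24 assays (8.76%). The groups were free of overlap for 0 members, against 5.47% of assays with DC-primed above and 8.03% with DC-primed below. By direction, 6 members stood higher and 2 lower after dendritic cell priming, with a median difference of 0.07, equal to the median of 0.07 over the 274 assays, of which 146 were higher.

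A change of scaling moves all assays by the same amount, so the sign of a small difference is that of the scale as much as of the member. Without normalization the median difference was -1.26 over the 8 members and over the 274 assays. Relative to RNY3 and snoRD47, a pair of small RNAs, it was 1.30 over both. Since both medians were 0.07 on the authors' scale, this equality was fixed in advance and says nothing about the members. The scale of RNY3 and snoRD47 is itself imprecise: the 8 wells of RNY3 in a sample spread by 1.59 to 2.80 cycles (SD), and those of snoRD47 by 2.97 to 6.05. The confidence intervals all included 0. The narrowest, for miR-204, ran from -1.31 to 1.75, and the widest, for miR-302d, from -1.43 to 3.76. Differences of about 1 on the log2 scale could therefore not be resolved with 3 samples a group, nor could larger ones for the members with wider intervals. In the authors' deposited table no member of 12 (a count of 0) had a p under 0.05 in the paired test over rounds, against 5.22% of the 345 assays, and the smallest was 0.166, for miR-128a with miR-128b.

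**Figure D4:**
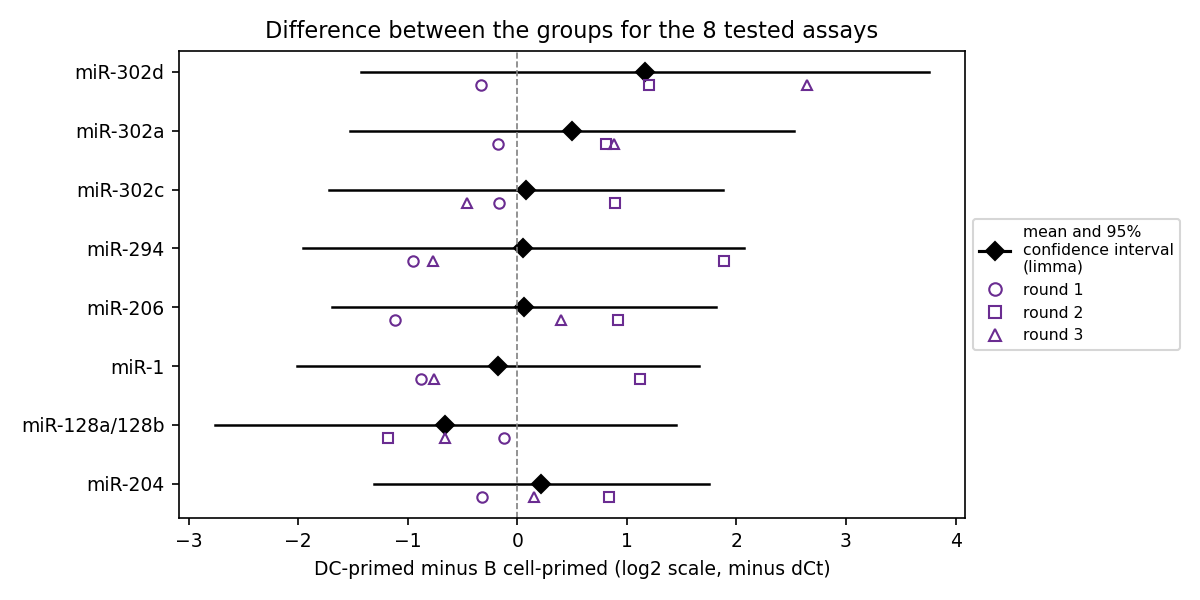
DC-primed minus B cell-primed level (x axis, log2 scale) for the 8 tested assays (rows); black diamonds and lines, mean and 95% confidence interval from limma; open symbols, the difference in each round. All 8 intervals include 0, and only miR-128a with miR-128b has its 3 rounds on 1 side.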

How the data were processed

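SYBR Green RT-PCR followed poly(A) tailing and cDNA synthesis from oligo-dT primers, with a forward primer for each miRNA and a universal reverse primer, per the labels' protocols; near-identical miRNAs can share signal. Raw Ct values (a score in cycles) and dCt values on a log2 scale were deposited by the authors for 350 and 345 miRNA assays. Per the file headers, a sample's dCt is Ct minus the geometric mean of its Ct values, and the table names state the reverse of the headers, which the values match. The authors also deposited p-values of a two-tailed paired test, ddCt and the fold (the ratio DC-primed to B cell-primed). They filled in missing Ct values, 1 of them in the members. Instrument and Ct calling: not given in the sources used here. Each Ct is 1 well.

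Samples were grouped by title. An assay was tested if its Ct was listed and below 35 in all 6 samples, which left 274. Minus dCt was fitted with limma 3.58.1 (R 4.3.3; lmFit, eBayes, two-sided, no block), with Benjamini-Hochberg adjustment over all tested assays at 0.05, and checked on simulated data. Lists were described by counts only. Every member present was described. The members and lists were chosen with earlier results of these data known; the ranking by Ct range and the fit with no limit on Ct and without DC-primed sample 3 were added after values were seen. The pairing by the round numbers of the titles was checked through each sample's deviation from its group mean over the tested assays: within rounds 1, 2 and 3 these correlated at 0.16, 0.14 and 0.46, so the round numbers meet the criterion for pairing (over 0.1 in each), although the first DC-primed sample was closer to the second B cell-primed one (0.33). The printed errors, intervals and p-values are nevertheless those of the fit without the block, and the blocked fit is an alternative. Alternatives were other scalings, Ct limits, the round as a block and leaving out each sample. Figures used matplotlib 3.10.9 in Python 3.11.15.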

Additional observations from a re-analysis of the deposited data

How the results depend on the processing

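Of 108 values of the 8 tested members under the alternatives, 86 kept the sign of the reported difference, 22 turned, and 0 were called. Some of these could not turn, since the round as a block and another or no Ct limit leave the difference itself unchanged. The fit with no limit on Ct and without DC-primed sample 3 also repeats the differences found by leaving out that sample. The count of 86 is therefore no measure of how stable the signs are. Without normalization the difference turned to -1.11 for miR-204, -1.27 for miR-206, -1.28 for miR-294, -0.83 for miR-302a, -1.25 for miR-302c and -0.16 for miR-302d. Relative to RNY3 and snoRD47 it turned to 1.05 for miR-1 and 0.57 for miR-128a with miR-128b. Leaving out 1 sample at a time gave -0.09 to 0.51 for miR-204, -0.74 to 0.46 for miR-1, -0.30 to 0.75 for miR-206, -0.80 to 0.76 for miR-294 and -0.53 to 0.59 for miR-302c, while miR-302a (0.01 to 1.33), miR-302d (0.02 to 2.33) and miR-128a with miR-128b (-1.38 to -0.01) kept their sign. The 2 scalings shift all assays alike; for the other settings the cause was not tested. The number of assays called by limma was 0 to 2 when 1 sample was left out, with 2 without DC-primed sample 3, neither of them a member. With no limit on Ct and without that sample it was 5 of 344 (1.45%), with 2 members, miR-9 and miR-184, whose values had led to that setting, so that these calls support nothing; there miR-204 turned to -0.03 and miR-206 to -0.26. With the round as a replicate block limma called 0 assays and 0 members (smallest adjusted p over all assays 0.0522), so the block changed no call. A Ct limit of 32 left 4 members in place of 8, since fewer assays were tested. Each value is 1 well in 3 samples a group, and a Ct near 35 or above carries no order between samples.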

Other observations

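The worm miRNA cel-mir-67, which the mouse genome does not encode, had 9 wells in each sample, and the labels do not say whether it was added to the RNA. Its mean Ct was 18.95, 25.11 and 17.55 with dendritic cells (samples 1, 2 and 3) and 23.16, 19.62 and 19.30 with B cells. The SD over the wells of a sample was 0.42 to 0.94 cycles.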
